A study of Mus musculus with 206 samples.

Results

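In NeuN-sorted nuclei from the striatum of adult mice given morphine around birth, the histone mark H3K27ac was compared 2 h after an injection of bacterial lipopolysaccharide (LPS) and 2 h after an injection of saline. Every striatum ChIP library labelled MOR-LPS or MOR-SAL was taken, which gave 22 libraries, 15 MOR-LPS (7 female and 8 male) and 7 MOR-SAL (4 female and 3 male). They are part of 45 striatum ChIP libraries, the others being 13 SAL-LPS and 10 SAL-SAL, and of 174 ChIP libraries among the 206 samples of the series. Each library was scored over the 60013 regions of the consensus peak set that the authors had built for the striatum.

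All mice were wild-type C57BL/6NTac of both sexes. Dams of both MOR groups carried a minipump that released 10 mg/kg of morphine sulfate per day, pups were moved to drug-naive foster mothers within hours of birth, and the pups themselves received 10 mg/kg of morphine under the skin 2 times a day from postnatal day 1 to the morning of postnatal day 14. Perinatal morphine and its withdrawal were therefore common to MOR-LPS and MOR-SAL, which by design differed in the adult injection alone, and in SAL-LPS and SAL-SAL saline had taken the place of perinatal morphine. The striatum was punched, nuclei carrying the neuronal protein NeuN were sorted, and about 10000 of them went into each microfluidic immunoprecipitation (MOWChIP-seq), so that the libraries describe sorted nuclei at 1 time after LPS and not whole striatum. Several mice shared a litter, and p-values measure the spread between these libraries.

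H3K27ac is an acetyl group on histone H3 that is laid down at active promoters and enhancers by the coactivators CBP and p300. LPS is a cell wall component of Gram-negative bacteria that is sensed by Toll-like receptor 4 and sets off NF-kB and, through the cytokines that follow, STAT3 and interferon signalling, while circulating glucocorticoids rise. The striatum consists mainly of GABA-releasing projection neurons that express dopamine and opioid receptors, with a minority of interneurons, and its fibre bundles hold many myelinating oligodendrocytes, whose nuclei lack NeuN.

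The sequences at the centre of 8 called regions (those that passed the test described below) are shown first, since these are the DNA stretches on which the comparison turns. Each is read from the plus strand of mm10 (GRCm38) and runs 100 bases to either side of the median summit of the peaks in the group where the region was higher. None of these windows overlaps an annotated exon, although the whole Frmpd2 region does. Higher in MOR-LPS were the Acap3 promoter region (chr4:155895028-155895228), an intron of Stox2 (chr8:47244875-47245075), a region 2894 bp from the start of Chd4 (chr6:125089647-125089847) and the Epb41l1 promoter region (chr2:156476477-156476677). Capitals mark ACAAAG, 1 of the 2 SOX words, in the Chd4 window and the AP-1 word TGANTCA in the Epb41l1 window.
Acap3: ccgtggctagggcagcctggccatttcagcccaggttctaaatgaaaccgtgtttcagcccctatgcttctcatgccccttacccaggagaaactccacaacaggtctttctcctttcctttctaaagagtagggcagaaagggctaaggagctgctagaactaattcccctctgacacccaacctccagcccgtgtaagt
Stox2: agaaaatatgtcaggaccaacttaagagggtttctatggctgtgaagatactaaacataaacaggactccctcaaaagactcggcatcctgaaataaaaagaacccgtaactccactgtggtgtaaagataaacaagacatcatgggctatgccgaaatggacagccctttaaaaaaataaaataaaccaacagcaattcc
Chd4: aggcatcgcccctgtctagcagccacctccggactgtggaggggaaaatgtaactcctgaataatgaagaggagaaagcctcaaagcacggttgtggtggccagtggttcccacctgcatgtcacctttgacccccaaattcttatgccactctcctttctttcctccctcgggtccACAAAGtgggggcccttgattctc
Epb41l1: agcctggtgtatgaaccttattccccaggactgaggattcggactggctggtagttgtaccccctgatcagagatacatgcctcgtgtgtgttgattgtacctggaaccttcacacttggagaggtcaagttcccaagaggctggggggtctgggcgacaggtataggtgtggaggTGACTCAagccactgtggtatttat

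Lower in MOR-LPS were a region of Frmpd2 (chr14:33525456-33525656), introns of Kcnk9 (chr15:72527500-72527700) and Fgf14 (chr14:124455720-124455920) and a region 13084 bp from the start of Ttc9 (chr12:81616952-81617152). Capitals mark the AP-1 word in the Fgf14 window and the E-box word CAGCTG in the Ttc9 window.
Frmpd2: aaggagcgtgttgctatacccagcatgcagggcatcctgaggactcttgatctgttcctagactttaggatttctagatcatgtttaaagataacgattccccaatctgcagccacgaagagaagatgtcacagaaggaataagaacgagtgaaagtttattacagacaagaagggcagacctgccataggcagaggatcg
Kcnk9: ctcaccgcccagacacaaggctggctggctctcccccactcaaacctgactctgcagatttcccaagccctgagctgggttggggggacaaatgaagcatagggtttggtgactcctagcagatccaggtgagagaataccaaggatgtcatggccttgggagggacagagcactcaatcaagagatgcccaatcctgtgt
Fgf14: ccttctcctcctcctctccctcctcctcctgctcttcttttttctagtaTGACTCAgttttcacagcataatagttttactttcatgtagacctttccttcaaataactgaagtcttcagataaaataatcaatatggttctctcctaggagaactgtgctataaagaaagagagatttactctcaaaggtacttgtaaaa
Ttc9: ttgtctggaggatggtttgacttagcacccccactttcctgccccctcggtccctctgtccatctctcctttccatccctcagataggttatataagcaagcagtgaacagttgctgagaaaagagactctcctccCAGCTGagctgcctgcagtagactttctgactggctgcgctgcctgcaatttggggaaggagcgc

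The words were searched on both strands in such windows at 60009 regions. The AP-1 word stood in 6.79% of all windows, in 4 of the 72 of regions higher in MOR-LPS (5.56%) and in 4 of the 80 of regions lower (5%). SOX words (ACAAAG or ATTGTT) stood in 24.7% of all windows, in 13 of 72 higher (18.1%) and in 27 of 80 lower (33.8%), and CAGCTG stood in 12.3%, 13.9% and 8.75%. NF-kB words (GGAATTTCC or GGACTTTCC) were found in 187 of all windows (0.312%) and in no window of a called region. Matches were rarer still for the CRE word TGACGTCA (0.258% of all windows, 0 higher and 1 lower) and the EGR word GCGTGGGCG (0.0817%, 0 and 0). The STAT word TTCNNNGAA stood in 6.13% of all windows and in 2 higher and 5 lower ones, the glucocorticoid receptor word ACANNNTGT in 6.51%, 3 and 1, and the interferon-stimulated element in 2.78%, 2 and 0. Guanine and cytosine made up a median of 50.2% of the windows of higher regions, 47.3% of lower ones and 47.8% of all.

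Peak lists differed in length and in cell type markers, which touches every value that follows. The MOR-LPS lists held 14178 to 109977 peaks (median 65569) and the MOR-SAL lists 28239 to 59286 (median 46110), a 1.37-fold difference in the geometric mean that did not pass an exact permutation test within sex (two-sided p = 0.198, 15 against 7 libraries). Of 22 oligodendrocyte marker genes, MOR-LPS libraries had 0 to 21 (median 1) under 1 of their 10000 highest peaks within 1 kb of a transcription start, and MOR-SAL libraries 0 to 2 (median 1). In MOR-LPS, 5 libraries (female 15-3, 16-0, 16-2 and 7-1 and male 14-4) had 50% to 95.5% of these genes, the other 10 had 0% to 22.7%, and MOR-SAL had 0% to 9.09%. Neuron markers were under such peaks at 5% to 25% of 20 genes in those 5 libraries, at 15% to 60% in the other 10 and at 30% to 65% in MOR-SAL. Mbp and Mog, genes of myelin proteins, were so marked in 6 and 5 MOR-LPS libraries and in 0 MOR-SAL libraries, whereas the synaptic gene Snap25 was marked in 11 of 15 and 5 of 7 and Rbfox3, which encodes NeuN, in 4 and 4. Astrocyte markers reached 0 to 3 of 16 in MOR-LPS and 0 to 2 in MOR-SAL, with the glutamine synthetase gene Glul marked in 6 and 2 libraries and Gfap, the astrocyte filament gene, in none. None of 16 microglia genes was marked by the 10000 highest peaks of any of the 22 libraries, while over whole lists MOR-LPS libraries had a peak at 0 to 5 of them and MOR-SAL libraries at 0. Cortical projection neuron genes reached 0 or 1 of 14 in every library of both groups. The promoter of Ppp1r1b, which encodes the striatal phosphoprotein DARPP-32, had a peak in 14 of 15 and 5 of 7 libraries. None of 7 marker lists passed an exact permutation test within sex (oligodendrocyte markers 26.1 percentage points higher in MOR-LPS, p = 0.0728, adjusted p = 0.439, neuron markers a difference of -10.6 points, p = 0.188, adjusted p = 0.439). Over whole lists, whose lengths differed, the exact test gave unadjusted p-values under 0.05 for 4 lists, all higher in MOR-LPS by 37.9 points for oligodendrocyte, 16.8 for precursor, 13.0 for astrocyte and 7.92 for microglia markers (adjusted p = 0.0521 each). The part that marker content and list length have in the regional differences was not tested, and results without the 5 libraries and 1 SAL-SAL library of the same kind (female 9-4, 81.8%) are given beside the counts below.

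**Figure D1:**
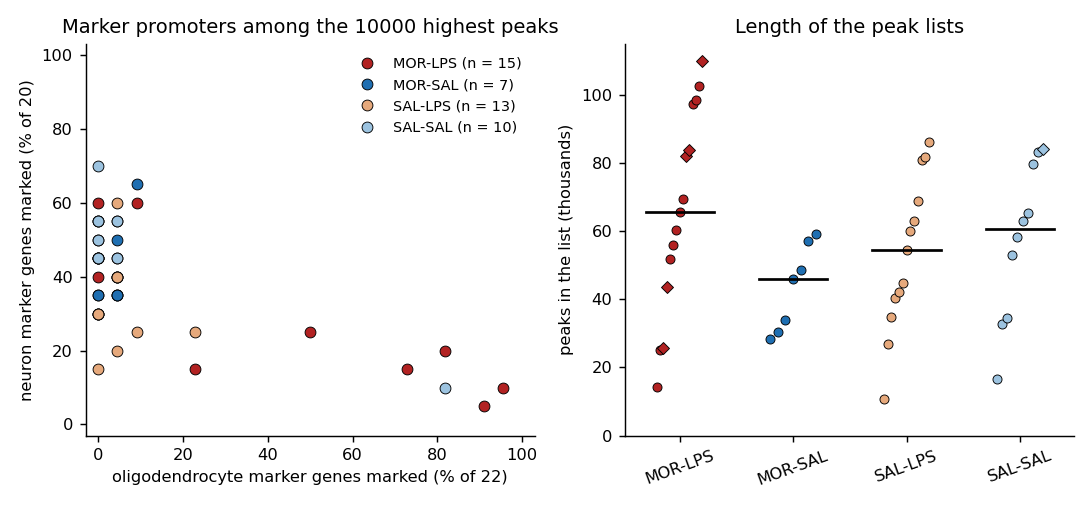
Left, percent of 22 oligodendrocyte marker genes (x axis) and of 20 neuron marker genes (y axis) with 1 of the 10000 highest peaks within 1 kb of their start, 1 point per striatum library. Right, number of peaks in each list by group, with a line at the median and diamonds for the 6 libraries with 50% or more of the oligodendrocyte markers, 5 of them MOR-LPS and 1 SAL-SAL.

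Each region took the highest peak score (-log10 p of the peak caller) of the peaks that touched it, and scores were turned into percentile ranks within the library from 0 to 100, with regions that had no peak sharing 1 tied rank. That tied rank depended on the length of the list and lay between 13.3 and 42.2 in MOR-LPS (mean 25.8) and between 25.3 and 36.4 in MOR-SAL (mean 30.5). Differences below are in rank points with their standard error, from limma on all 45 striatum libraries with terms for group and sex, and a region was called at a Benjamini-Hochberg adjusted p under 0.05 over all 60013.

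After perinatal morphine, LPS and saline differed at 152 of 60013 regions (0.253%), 72 higher in MOR-LPS (0.12%) and 80 lower (0.133%). The kinds of region differed between the directions. Of the higher regions 43 (59.7%) lay within 1 kb of a transcription start, among them promoters of an RNase P subunit (Rpp14) and a proton pump subunit (Atp6v1d), against 10 (12.5%) of the lower regions and 18.8% of all. Lower regions lay mostly inside or between genes, among them regions of Kcnk9, Fgf14, Rims1 and Rph3a. Over the 11301 promoter regions 0.38% were called higher and 0.0885% lower.

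At an unadjusted p under 0.05 there were 5613 higher regions (9.35%) and 4763 lower ones (7.94%), and among promoters 2017 higher (17.8%) and 369 lower (3.27%). Higher regions were wide, with a median of 3445 bp against 1540 bp for lower regions and 2206 bp for all, and 75% of them against 16.25% and 30.3% also lay in the consensus set of the prefrontal cortex. No more than 9 higher regions (chromosome 7) and 7 lower regions (chromosome 6) fell on 1 chromosome. Differences ran from 21.6 to 53.0 points in the higher regions (median 41.9) and had a median of -34.3 in the lower ones.

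The number of calls fell without the libraries rich in oligodendrocyte markers, which also left fewer libraries, and with lists of equal length. The reason was not tested. Without the 6 libraries limma called 0 regions (smallest adjusted p = 0.147, 4376 at an unadjusted p under 0.05). The medians of the 152, which the remaining libraries had already helped to choose, were then 36.4 and -32.8 points. All 152 kept their direction and an unadjusted p under 0.05 in limma, which follows in part from that choice. With the share of oligodendrocyte markers as a term and all 45 libraries kept, limma also called 0 regions (smallest adjusted p = 0.06). The 152 all kept their direction in that fit. With all lists cut to the length of the shortest, 2 regions were called, neither of them among the 152, and the medians were 26.9 points for the 72 and -7.03 for the 80. Leaving out 1 MOR library gave between 56 and 296 calls. It gave 56 without MOR-SAL 16-1, 64, 71, 73, 79 and 91 without MOR-LPS 16-2, 15-3, 7-1, 16-4 and 16-0, and 229, 241 and 296 without MOR-LPS 8-1, 13-0 and 12-2.

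A peak was present at the higher regions in a median of 14 of 15 MOR-LPS and 1.5 of 7 MOR-SAL libraries, and at the lower regions in 1.5 and 5. Of the 72 higher regions 20 had no peak in any MOR-SAL library, which held for 16.8% of all regions, and of the 80 lower regions 22 had none in any MOR-LPS library, which held for 1.16%. The ranks of both groups did not overlap at 4 of the 72 and 2 of the 80, against 11 regions (0.0183%) of all. Counted by library, 58.3% to 100% of the higher regions had a peak in MOR-LPS and 2.78% to 30.6% in MOR-SAL, and 0% to 42.5% of the lower regions had one in MOR-LPS and 48.8% to 90% in MOR-SAL. The same regions, chosen on the MOR groups alone, had a mean of 68.3% and 70.7% with a peak in SAL-LPS and SAL-SAL for the higher and 23.6% and 25.1% for the lower set. Mean ranks in SAL-SAL lay nearer to MOR-LPS than to MOR-SAL at 55 of the 72 and 72 of the 80, and those in SAL-LPS at 52 and 73 (of all 60013 regions, 29694 and 28006). MOR-SAL thus stood apart from the other 3 groups at most called regions, a description that follows in part from the choice of regions on MOR-SAL itself.

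**Figure D2:**
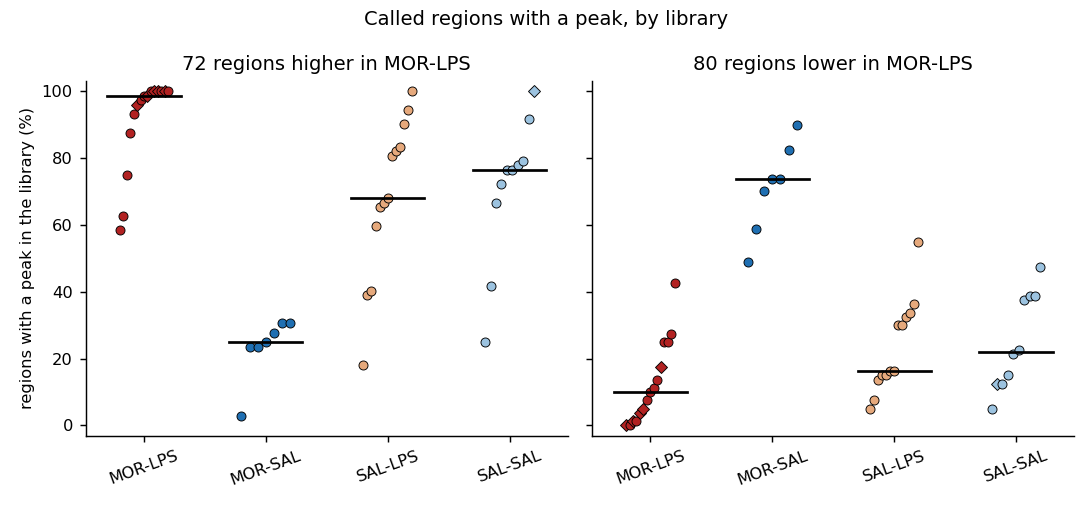
Percent of the 72 regions called higher (left) and the 80 called lower (right) in MOR-LPS that had a peak in each striatum library (y axis), by group, with a line at the median and diamonds for libraries with 50% or more of the oligodendrocyte markers. The 7 MOR-SAL libraries sit between 2.78% and 30.6% on the left and between 48.8% and 90% on the right, below and above most libraries of the other 3 groups.

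Most of the largest differences among the higher regions with an assigned gene lay at promoters. The promoter region shared by Acap3, an activator of the GTPase function of Arf6, and Pusl1 (chr4:155892359-155896294) ranked 60.2, 87.5 and 98.4 in MOR-LPS (lowest, median, highest) and 25.3, 29.4 and 36.4 in MOR-SAL. All 15 MOR-LPS libraries had a peak there, with scores of 6.23 to 33.4 (median 10.2), no MOR-SAL library had one, and the groups did not overlap. The difference was 53.0 ± 10.3 points (SE, adjusted p = 0.00473), and it was 49.8 without the libraries rich in oligodendrocyte markers (adjusted p = 0.147).

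The Rpp14 promoter region, at a gene for a subunit of the tRNA-processing enzyme RNase P, ranked 21.3, 87.4 and 98.0 against 25.3, 29.4 and 36.4 (51.1 ± 11.2, adjusted p = 0.0167). That of Ippk, the kinase that makes inositol hexakisphosphate, ranked 49.2, 84.8 and 94.1 against the same MOR-SAL values (49.96 ± 10.6, adjusted p = 0.014). Ippk had a peak in 15 of 15 MOR-LPS libraries and did not overlap with MOR-SAL, and Rpp14 had one in 14 and did overlap. An intron of Stox2, a winged-helix protein gene, ranged from 13.8 to 99.95 (median 90.3) in MOR-LPS and from 25.3 to 36.4 in MOR-SAL (49.1 ± 10.9, adjusted p = 0.0178). Near Chd4, the helicase of the NuRD chromatin remodelling complex, ranks were 65.9, 88.4 and 98.1 against 26.4, 33.3 and 71.3 (48.9 ± 9.55, adjusted p = 0.00473). At Stox2 the lowest MOR-LPS library lay below every MOR-SAL library, and at Chd4 1 MOR-SAL library (female 7-2) carried a peak and lay among the MOR-LPS values.

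A further 6 of the regions taken by largest difference were 5 promoter regions, those of Lgmn, Ccp110, Marf1 with Nde1, Cyb5a, and Atp6v1d with Eif2s1, and 1 intron, of the cell adhesion molecule gene Alcam. The lysosomal protease gene Lgmn differed by 48.4 ± 10.7 points (peaks in 13 of 15 against 0 of 7) and the centriole gene Ccp110 by 48.1 ± 10.6 (13 against 0). Alcam differed by 47.9 ± 10.3 (13 against 1), the cytochrome b5 gene Cyb5a by 46.0 ± 10.4 (14 against 2) and the RNase gene Marf1 by 45.8 ± 9.93 (13 against 1). Atp6v1d, a subunit of the vacuolar proton pump, shares its promoter region with Eif2s1, the alpha subunit of initiation factor eIF2, and differed by 44.6 ± 9.51 (15 against 2). Adjusted p-values of these 6 lay between 0.0141 and 0.0213.

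Beside Acap3, 6 promoters were taken by smallest p, and these were less empty in MOR-SAL. At the Zc3h6 promoter region ranks were 76.9, 95.9 and 99.9 in MOR-LPS and 25.3, 68.1 and 96.7 in MOR-SAL (32.5 ± 6.08, adjusted p = 0.00464). The region at the start of Nbr1, a receptor that delivers ubiquitin-tagged cargo to autophagosomes, ranked 42.2, 97.9 and 99.97 against 26.4, 36.4 and 98.9 (37.4 ± 7.21, adjusted p = 0.00473). The regions at Zc3h6 and Nbr1 each also hold the start of a neighbouring gene. MOR-SAL was divided at both, with a peak in 4 of 7 libraries at Zc3h6 and in 3 of 7 at Nbr1, and the ranges overlapped. Urm1, which thiolates transfer RNAs, differed by 42.7 ± 8.33 (14 against 2 libraries with a peak) and Dph3, which acts in diphthamide synthesis, by 43.0 ± 8.54 (15 against 2). The gene of the neuronal membrane skeleton protein 4.1N, Epb41l1, differed by 34.3 ± 6.91 (14 against 4), and that of the centriole protein centrin 3, Cetn3, by 42.2 ± 8.6 (14 against 2).

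**Figure D3:**
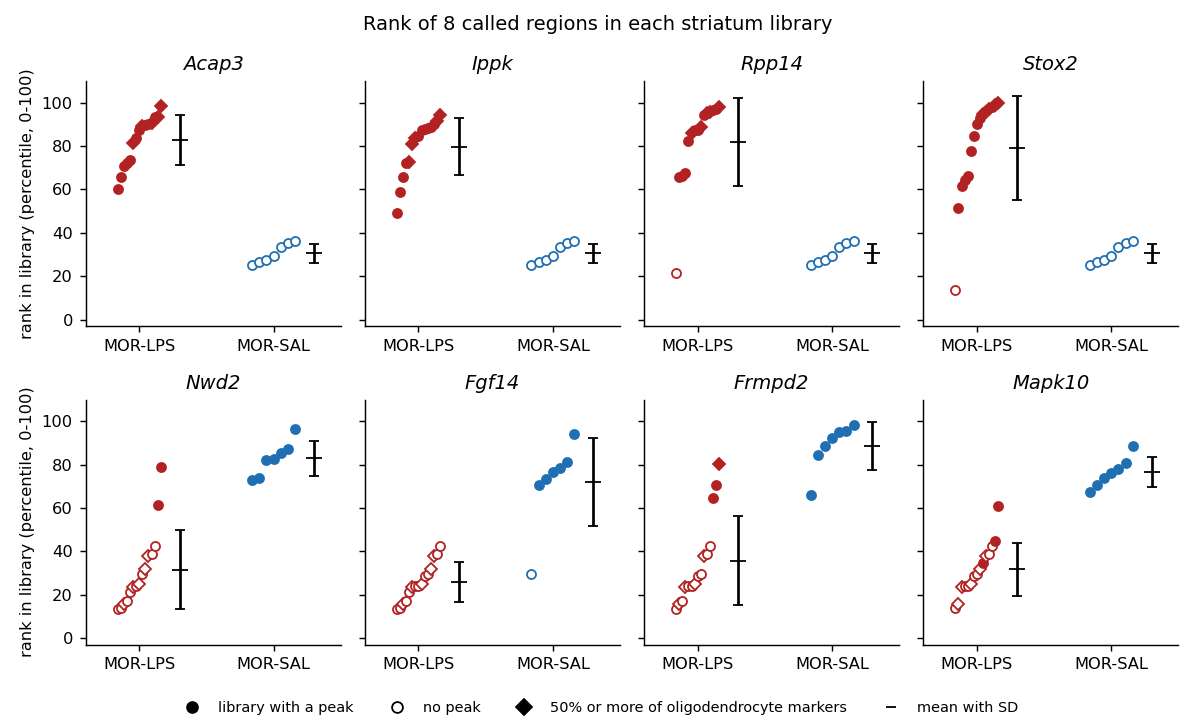
Percentile rank (y axis, 0 to 100) of 8 called regions in each of the 15 MOR-LPS and 7 MOR-SAL libraries, filled where the library had a peak and open where it had none, diamonds for libraries with 50% or more of the oligodendrocyte markers, and bars for the mean with its SD. All MOR-SAL libraries were without a peak at Acap3, Ippk, Rpp14 and Stox2, and all MOR-LPS libraries were without one at Fgf14.

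Among the lower regions with an assigned gene, 1 promoter stood with introns, exons and distal regions at the largest differences. A region within Frmpd2, a scaffold protein gene (chr14:33525070-33527041), ranked 13.3, 28.7 and 80.3 in MOR-LPS and 66.1, 92.2 and 98.0 in MOR-SAL (-52.0 ± 11.1, adjusted p = 0.0141). It had a peak in 3 of 15 and 7 of 7 libraries, and 2 of the 3 had ranks above the lowest MOR-SAL library. The promoter region of Nwd2, a NACHT and WD repeat protein gene, ranked 13.3, 25.1 and 78.8 against 73.1, 82.8 and 96.5 (-51.8 ± 10.1, adjusted p = 0.00473), with a peak in 2 of 15 and 7 of 7 and 1 MOR-LPS library inside the MOR-SAL range. Within Fgf14, whose product binds voltage-gated sodium channels, no MOR-LPS library had a peak and 6 of 7 MOR-SAL libraries did, with ranks of 13.3 to 42.2 against 29.4, 76.5 and 94.0 (-46.1 ± 8.63, adjusted p = 0.00464). Female 15-0 was the MOR-SAL library without a peak, and the groups overlapped through it alone.

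Kcnk9, the TASK-3 potassium leak channel gene, had an intronic region at 13.3, 31.8 and 78.7 against 66.1, 82.8 and 96.9 (-47.1 ± 11.1, adjusted p = 0.0286). The region near Ttc9 ranked 17.0, 37.6 and 82.3 against 77.4, 87.6 and 95.7 (-46.4 ± 10.9, adjusted p = 0.0282). An intron of Mapk10, the neuronal JNK3 kinase gene, lay at 13.8, 29.5 and 61.0 against 67.5, 76.2 and 88.7 (-45.2 ± 9.55, adjusted p = 0.014). All 7 MOR-SAL libraries had a peak at each of these, against 4, 5 and 3 of 15 MOR-LPS libraries, and only the Mapk10 ranks did not overlap. Nell2, a secreted neuronal glycoprotein gene, had a region at 23.7, 35.1 and 64.1 against 70.5, 74.6 and 90.4, again without overlap (-44.0 ± 10.2, adjusted p = 0.0247). An intron of Rbfox1, a neuronal splicing regulator, ranked 17.0, 31.8 and 82.9 against 60.9, 83.8 and 96.5 (-44.9 ± 10.8, adjusted p = 0.0332).

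The 12 were completed by 4 others. The sphingosine-1-phosphate receptor gene S1pr3 had a region at -44.6 ± 9.56 (peaks in 3 of 15 and 7 of 7), the phosphatase gene Ppm1l at -43.6 ± 10.4 (5 and 7), the synaptic vesicle gene Rph3a at -42.3 ± 10.0 (3 and 6) and the presynaptic active zone gene Rims1 at -40.9 ± 7.88 (1 and 6). Rims1 had the smallest adjusted p of these (0.00473) and Ppm1l the largest (0.032). An intron of the synaptic adhesion gene Mdga2 had a difference of -35.3 ± 6.57 and a peak in 1 of 15 and 5 of 7 libraries. It shared the smallest adjusted p of all regions (0.00464) with Fgf14, Zc3h6 and an intron of Nf2, the merlin gene, which was higher in MOR-LPS (40.2 ± 7.25, peaks in 15 of 15 and 3 of 7).

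Besides Nwd2, 6 promoters were taken by smallest p among those lower in MOR-LPS. They were P4ha3, a collagen prolyl hydroxylase gene (-28.5 ± 6.12, peaks in 0 of 15 and 4 of 7), the nuclear receptor gene Pparg (-34.7 ± 7.92, 3 and 5), Zfp750, a transcription factor gene of epidermal cells (-31.6 ± 7.22, 0 and 4), and Ptger2, the EP2 prostaglandin receptor gene (-35.8 ± 8.24, 1 and 5). Hapln1, which links hyaluronan and proteoglycans in perineuronal nets, had -33.6 ± 7.72 (2 and 5) and the copine gene Cpne9 -33.7 ± 7.77 (0 and 5). With lists of equal length the differences at P4ha3, Cpne9 and Ptger2 were 0.03, 0.03 and 0.23 points. The value at P4ha3 and Cpne9 is that of a region without a peak in any of the cut lists, so it cannot show a difference there.

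Both sexes showed the direction of the pooled fit. In females alone all 152 regions kept their direction, with medians of 49.5 and -42.1 points, and in males alone they did so too, with 33.7 and -29.9. An unadjusted p under 0.05 was reached at 148 in females and at 107 in males, but these libraries had already chosen the regions, and the sexes were not tested against each other. Over all regions 2318 were called in females and 5 in males, and in females 0 without the libraries rich in oligodendrocyte markers, which were 4 of 7 female and 1 of 8 male MOR-LPS libraries.

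The comparison after perinatal saline asked whether the same regions differed there. SAL-LPS and SAL-SAL differed at 0 of 60013 regions (0%) by limma, with 1622 higher (2.7%) and 1440 lower (2.4%) at an unadjusted p under 0.05. The 72 regions higher after morphine had a median difference of -3.10 points after saline and were higher at 30, where 49.6% of all regions were, and the 80 lower ones had a median of -0.07 and were lower at 40. None of the 152 reached an unadjusted p under 0.05 in its direction after saline.

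**Figure D4:**
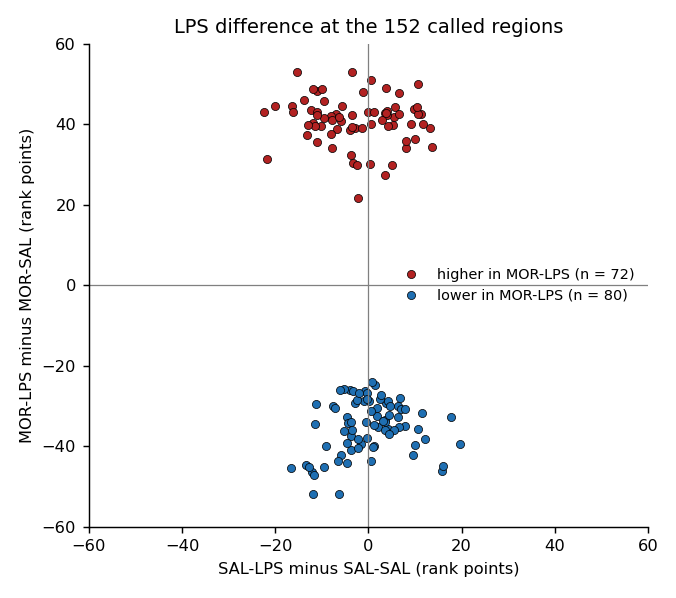
MOR-LPS minus MOR-SAL difference (y axis, rank points) against SAL-LPS minus SAL-SAL difference (x axis, rank points) at the 152 called regions, 1 point per region. The regions were chosen by the y axis, on which they lie beyond 21.6 points from 0, and on the x axis they spread on both sides of 0.

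A test of the difference between both LPS effects, which shares the MOR libraries with the comparison above, called 10 regions (0.0167%), 7 at which the effect was more positive after morphine (0.0117%) and 3 at which it was more negative (0.005%), with 4949 (8.25%) and 3776 (6.29%) at an unadjusted p under 0.05. All 7 were promoter regions (0.0619% of 11301). Acap3 had 68.3 ± 14.1 points, Cblb, a ubiquitin ligase gene, 65.4, Atp6v1d 61.0, the calpain gene Capn10 56.2, the respiratory complex I gene Ndufb3 53.1, Nbr1 50.6 and Brd2, which encodes a reader of acetylated histones, 46.9. Adjusted p-values lay between 0.0203 and 0.0395.

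At the Cblb promoter region mean ranks were 80.7 in MOR-LPS, 38.4 in MOR-SAL, 59.6 in SAL-LPS and 80.8 in SAL-SAL, and at that of Ndufb3 they were 92.3, 60.2, 69.3 and 92.0. These values place MOR-LPS beside SAL-SAL and put MOR-SAL lowest. Capn10 (33.8 ± 8.81, adjusted p = 0.0565) and Brd2 (26.2 ± 7.18, adjusted p = 0.0649) were not called between MOR-LPS and MOR-SAL, and Cblb (43.1 ± 10.3, adjusted p = 0.0318) and Ndufb3 (31.4 ± 7.64, adjusted p = 0.0394) were. Brd2 had a peak in 15 of 15 and 4 of 7 libraries, with a difference of -2.04 points in females and 61.2 in males.

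The 3 negative ones were Fgf14 (-61.8, adjusted p = 0.0203), an intron of Ntm, the neuronal adhesion protein neurotrimin (-59.2, adjusted p = 0.0371), and a region 29328 bp from Krt80, a keratin gene (-50.4, adjusted p = 0.0395). No MOR-LPS library had a peak at any of the 3, and 6, 5 and 4 of 7 MOR-SAL libraries did. In SAL-LPS 7, 8 and 5 of 13 libraries had a peak and in SAL-SAL 2, 2 and 0 of 10, so that the order of LPS and saline libraries was opposite in both settings. Between MOR-LPS and MOR-SAL the differences were -39.5 ± 8.93 at Ntm and -32.6 ± 7.78 at Krt80, both called. No interaction was called by limma without the 6 libraries rich in oligodendrocyte markers (1594 more positive and 1654 more negative at an unadjusted p under 0.05), with lists of equal length (2329 and 2034) or with the number of peaks as a term (4964 and 3761). Leaving out 1 MOR library gave 2 to 23 interaction calls. There were 2 without MOR-SAL 16-1, 17-4 or 8-0, 3 without MOR-LPS 15-1, 16-0, 16-2, 7-1, 14-2 or 8-3, 4 without MOR-LPS 16-4 and 6 without MOR-LPS 6-4, and there were 15 without MOR-SAL 7-2 or 17-0, 21 without MOR-SAL 15-0 and 23 without MOR-SAL 15-4.

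Genes that respond to LPS and to its hormonal sequel were read from lists and are given by counts and medians, beside a median of -0.96 points over all regions and 6.02 over all promoters. Counts of higher and lower list regions are at an unadjusted p under 0.05 and stand beside 9.35% higher and 7.94% lower over all regions and 17.8% and 3.27% over promoters. A region belonged to the list of the gene with the nearest start within 100 kb, so 3 called regions inside list genes fell outside their lists and are given with them below. Of 44 regions of NF-kB factors and feedback inhibitors none was called, and 10 were higher and 2 lower at an unadjusted p under 0.05 (median 3.62). Their 14 promoter regions had a median of 17.5 with 7 higher and 0 lower, and the median was 9.09 without the libraries rich in oligodendrocyte markers. The smallest p was at Tnip2, an inhibitor of NF-kB signalling, with a peak in 12 of 15 MOR-LPS and 0 of 7 MOR-SAL libraries (39.8 ± 10.9, adjusted p = 0.0649). Glucocorticoid receptor and induced genes had 1 of 118 regions called, 30 higher and 5 lower at an unadjusted p under 0.05, and a median of 6.61 (2.61 without those libraries).

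The called glucocorticoid list region was the promoter of Plin4, which encodes a lipid droplet coat protein, with ranks of 38.6, 84.9 and 99.8 against 27.4, 36.4 and 72.7 (39.2 ± 9.75, adjusted p = 0.0433). It had a peak in 14 of 15 and 3 of 7 libraries and the groups overlapped. A called region that reaches into Gpd1, a glycerol phosphate dehydrogenase gene of this list, was counted for Cox14, whose start is nearer (27.4 ± 6.41, adjusted p = 0.0274). A distal region assigned to Nr3c1, the glucocorticoid receptor gene, had -33.0 ± 9.85 (adjusted p = 0.0834). Acute-phase and STAT3 genes had 8 of 30 regions higher and 3 lower at an unadjusted p under 0.05 (median 4.78), with the protease inhibitor gene Serpina3n at 36.2 ± 11.4 (adjusted p = 0.0974) and the cytokine signalling suppressor Socs2 at -25.8 ± 9.39 (adjusted p = 0.135). At Serpina3n the difference was 60.1 in females and 12.5 in males, and at Socs2 -54.6 and 8.77.

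Cytokine and chemokine genes had 17 regions, 2 of them higher and 0 lower at an unadjusted p under 0.05, both assigned to Il12a, a subunit of interleukin-12 (distal 30.0 ± 10.1, promoter 26.4 ± 10.4, adjusted p = 0.114 and 0.163). The distal one had a peak in all 5 oligodendrocyte-rich MOR-LPS libraries, in 2 of the other 10 and in 0 of 7 MOR-SAL libraries. Among 20 regions of interferon response genes 2 were higher and 1 lower (median 1.39), with the promoter of Irf9, a subunit of the ISGF3 complex, at 35.0 ± 10.9 (adjusted p = 0.0918). Immediate early genes had 133 regions with 8 higher, 5 lower and a median of -3.28. A region 43183 bp from Fos had 31.4 ± 10.1 (adjusted p = 0.104), one near the activin gene Inhba -22.3 ± 6.97 (adjusted p = 0.0944) and the Jund promoter 25.8 ± 10.7 (adjusted p = 0.184). The Fos region followed the same libraries, with a peak in 5 of 5 rich, 3 of 10 other MOR-LPS and 0 of 7 MOR-SAL libraries.

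Clock genes had 8 of 111 regions higher and 3 lower (median -0.93), among them the promoters of Nr1d1, a repressor of the clock loop (18.8 ± 4.84, adjusted p = 0.0531), and of Rora, an activator in the same loop (-16.2 ± 5.98, adjusted p = 0.139). An intron of Rora more than 100 kb from any protein-coding start, and so not counted in the list, was called lower (-31.3 ± 7.38, adjusted p = 0.0289, peaks in 1 of 15 and 4 of 7). Heat shock and unfolded protein genes had 7 of 54 higher and 2 lower (median -0.76), with Ddit3, the stress factor CHOP, at 34.5 ± 10.6 (adjusted p = 0.0908). Lipid, glucose and insulin genes had 23 of 110 higher and 3 lower and a median of 6.35, which was 1.51 without the libraries rich in oligodendrocyte markers. Srebf1, the regulator of fatty acid synthesis, had 34.7 ± 11.1 (adjusted p = 0.102), the glucose transporter gene Slc2a1 24.3 ± 10.7 (adjusted p = 0.217) and a region near Pck1, the gluconeogenesis enzyme gene, -22.3 ± 8.57 (adjusted p = 0.154). Peak scores at Srebf1 were 11.4 to 38.0 in the MOR-LPS libraries rich in oligodendrocyte markers, 0 to 11.4 in the other MOR-LPS libraries and 0 to 6.05 in MOR-SAL. None of the regions counted in these 3 lists was called.

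Lists of striatal and synaptic genes had medians below that of all regions with all 45 libraries and whole lists of peaks. With lists of equal length, each of these gene lists, like several others, had the same median as all regions (0.03 points). A region without a peak in any of the cut lists takes this value. The equality therefore does not tell whether these genes differed. Without the libraries rich in oligodendrocyte markers the median of all regions was -0.11. The interneuron and the dopamine and cAMP lists then lay above it and the other striatal and synaptic lists below it. The reason for these shifts was not tested. Of 337 regions of striatal projection neuron identity genes 8 were higher and 17 lower at an unadjusted p under 0.05 (median -4.03), and 2 were called lower, 35759 bp from the homeobox gene Six3 (-35.9 ± 8.59, adjusted p = 0.0322) and in an intron of Pde10a, the striatal phosphodiesterase gene (-26.3 ± 6.47, adjusted p = 0.0416). Six3 had a peak in 2 of 15 MOR-LPS and 5 of 7 MOR-SAL libraries and Pde10a in 1 and 4, and ranks overlapped at both. Ppp1r1b ran the other way at its promoter (18.5 ± 6.97, adjusted p = 0.145), with 36.4 points in females and -3.71 in males, as did an exon of Foxp1, a projection neuron transcription factor gene (31.6 ± 11.2, adjusted p = 0.126). Without the libraries rich in oligodendrocyte markers the list median was -0.64.

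Dopamine and cAMP signalling genes had 25 of 269 regions higher and 16 lower (median -2.12), and 1 called lower, the Pde10a intron. Pde4b, a cAMP phosphodiesterase gene, had 33.4 ± 8.71 in an intron (adjusted p = 0.0571) and 30.3 ± 9.57 at its promoter (adjusted p = 0.0972). Opioid system genes had 8 of 142 higher (5.63%) and 9 lower (6.34%), both under the shares over all regions, a median of -2.76 and none called. Gnai1, an inhibitory G protein subunit through which opioid receptors signal, had 28.2 ± 10.3 at its promoter (adjusted p = 0.136) and a region assigned to Rgs4, which shortens that signal, -20.8 ± 6.39 (adjusted p = 0.0906). Striatal interneuron genes had 0 of 36 higher and 3 lower (median -3.39), with a region near the neuropeptide gene Cck at -34.1 ± 9.56 (adjusted p = 0.0711) and an exon of the vesicular GABA transporter gene Slc32a1 at 17.3 ± 11.0 (adjusted p = 0.418).

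The 24 listed potassium channel genes, which do not include Kcnk9, had 8 of 273 regions higher (2.93%) and 29 lower (10.6%, median -5.05), and 1 was called in each direction. A region 60896 bp from Kcna4, the Kv1.4 gene, ranked 13.3, 28.7 and 53.1 against 26.4, 84.4 and 96.9 (-39.3 ± 8.66, adjusted p = 0.0167). MOR-SAL had a peak in 5 of 7 libraries at Kcna4 and MOR-LPS in 2 of 15. The promoter of Kcnip4, which encodes a subunit of such channels, had -30.6 ± 9.92 (adjusted p = 0.104). Glutamate and GABA receptor genes had 5 of 228 higher (2.19%) and 33 lower (14.5%), none called, and a median of -7.34 (-3.55 without the libraries rich in oligodendrocyte markers). Gabrb2 and Gabra2, subunits of the GABA-A receptor, had -40.5 ± 10.8 (adjusted p = 0.0602) and -15.7 ± 6.23 (adjusted p = 0.168), and Grm3, a metabotropic glutamate receptor gene, had 26.1 ± 9.69 (adjusted p = 0.141). Gabrg3, a GABA-A subunit gene not on the list, had an intron called lower (-32.3 ± 8.01, adjusted p = 0.0432, peaks in 2 of 15 and 5 of 7).

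The 25 listed synaptic scaffold and adhesion genes had 15 of 443 regions higher (3.39%) and 49 lower (11.1%, median -4.01) and none called. An intron of the neuroligin gene Nlgn1 more than 100 kb from any protein-coding start, not counted there, was called lower (-25.9 ± 6.59, adjusted p = 0.0491, peaks in 1 of 15 and 3 of 7), and Mdga2 is not on the list. An intron of Kalrn, an exchange factor of dendritic spines, had -40.8 ± 11.1 (adjusted p = 0.0636), an intron of the postsynaptic scaffold gene Dlg2 33.8 ± 10.1 (adjusted p = 0.0834) and a promoter of the neurexin gene Nrxn3 -22.5 ± 8.41 (adjusted p = 0.143). Peak scores at Dlg2 were 14.7 to 41.5 in the MOR-LPS libraries rich in oligodendrocyte markers, 0 to 14.4 in the other MOR-LPS libraries and 0 to 9.41 in MOR-SAL. Neuron markers had 1 of 267 higher and 39 lower, 1 called lower (the Rbfox1 intron) and a median of -7.00, which was -3.31 without the libraries rich in oligodendrocyte markers. The Rbfox3 promoter region had a peak in all 22 libraries, with -12.2 ± 5.02 (adjusted p = 0.184). A second region assigned to Rbfox3 ran the other way, with most MOR-LPS libraries ranked above the highest MOR-SAL library.

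The median furthest above that of all regions, among the lists of at least 17 regions, was that of oligodendrocyte markers. They had 28 of 77 regions higher and 1 lower at an unadjusted p under 0.05, none called, and a median of 14.2 points (25.7 over 20 promoter regions, 14 of them higher), against 3.37 without the libraries rich in these markers. The promoter of Tspan2, a tetraspanin of myelinating cells, ranked 21.3, 61.9 and 99.99 against 25.3, 29.4 and 36.4 (35.9 ± 10.1, adjusted p = 0.0718). This 1 region had a peak in 5 of 5 rich libraries, in 4 of the other 10 and in 0 of 7 MOR-SAL libraries. Counted within 1 kb of a Tspan2 start, 8 MOR-LPS libraries and 1 MOR-SAL library had a peak. Sox10, the oligodendrocyte lineage factor, had 27.9 ± 10.6 at its promoter (adjusted p = 0.147). Precursor markers had 5 of 13 higher and 0 lower (median 7.29), astrocyte markers 3 of 55 higher and 10 lower (median -3.09), microglia markers 1 and 1 of 12 (median -11.4), endothelial and mural markers 2 and 1 of 13 (median -0.85) and cortical projection neuron markers 1 and 9 of 46 (median -7.66). These counts stand beside the called regions as measured, and the part of non-neuronal nuclei in them was not tested.

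**Figure D5:**
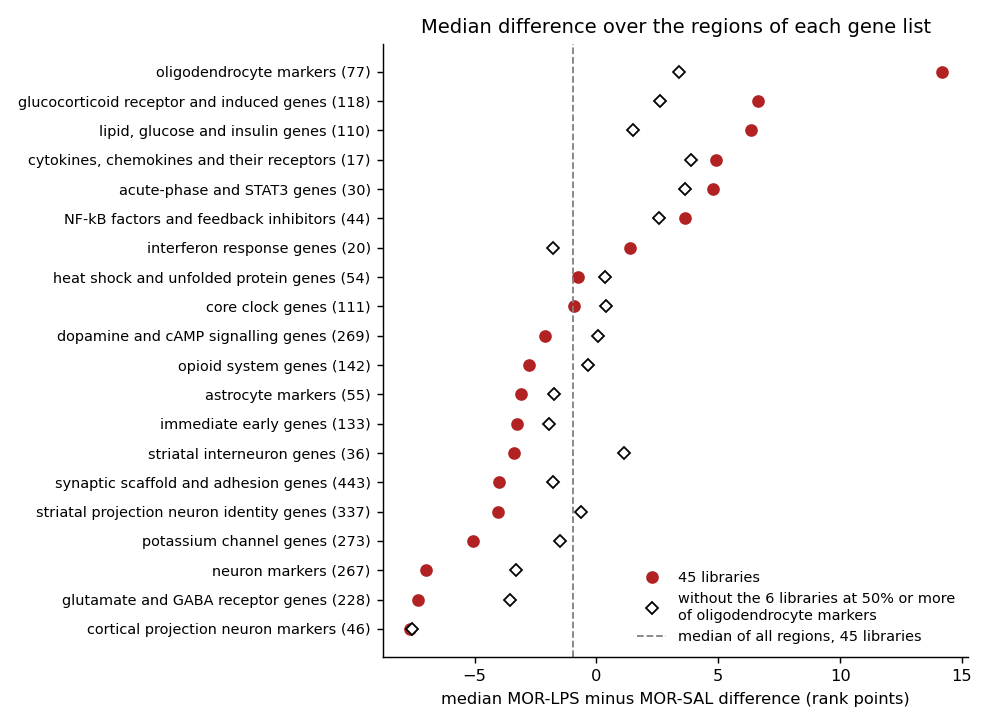
Median MOR-LPS minus MOR-SAL difference (x axis, rank points) over the regions of each gene list (number of regions in brackets), from all 45 libraries (circles) and without the 6 libraries with 50% or more of the oligodendrocyte markers (diamonds), with a dashed line at the median of all regions. Oligodendrocyte markers lie at 14.2 and 3.37, neuron markers at -7.00 and -3.31.

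A measure that uses neither the size of the score nor the length of the list gave no call. It asked whether a region lay under 1 of the 10000 highest peaks of a library, and it could be tested at 12316 regions so marked in 20% to 80% of the 22 libraries. An exact conditional test with sex as stratum called 0 (0%), with 1046 higher (8.49%) and 489 lower (3.97%) at an unadjusted p under 0.05 and a smallest adjusted p of 0.226. That value is the lowest that 1 fully separated region could reach alone, given 54450 arrangements within sex and 12316 tests. A region could thus be called only together with others, so 0 calls do not tell whether any region differed by this measure.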

How the data were processed

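H3K27ac was measured by MOWChIP-seq in 45 striatum libraries. The submitters' processing notes name mm10 as the build and list Bowtie2 2.4.5, SAMtools 1.15.1, Trim Galore 0.6.7, MACS2 2.2.7.1 and DiffBind 3.10.1. The authors called peaks in each library separately and merged them into 1 consensus set per brain region. The deposited lists hold for each peak a score, a fold enrichment and −log10 values of p and q (the lowest −log10 q was 1.3), and no read counts, so depth is unknown and the number of peaks stands in for it.

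Every region was scored by its strongest overlapping peak (−log10 p, overlap of 1 bp or more, 0 where there was none), and scores were ranked within each library from 0 to 100 with ties averaged. The ranks were fitted with limma 3.58.1 (R 4.3.3, mean-variance trend) with group and sex as terms, two-sided, with Benjamini-Hochberg adjustment over 60013 regions and called at 0.05. The script was tested on simulated data. Marker shares, peak numbers and occupancy of the 10000 highest peaks were tested exactly within sex (54450 arrangements) with scipy 1.17.1. Overlaps used bedtools 2.31.1 and transcription starts GENCODE M21. A promoter lay within 1 kb of a start, and other regions were assigned to the nearest protein-coding start within 100 kb.

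The libraries, lists and rules were chosen with earlier results of these data known. Named were, in each direction, the 12 called regions of largest difference with an assigned gene, the 8 promoters of smallest p, the regions and promoter of smallest p and up to 4 called regions of each list, and the 6 interaction regions of smallest p, 104 in all, of which 80 are given with values. Some items are not reported here. The called regions of Nf2, Gpd1, Gabrg3 and Nlgn1 and the called Rora intron fall outside this rule and were added after their values were seen. The rule named 8 called regions for sequences. Replicate labels begin with a litter number, by the sample format in the study's supplement. The labels themselves do not say so, and in the MOR groups mice that share a number were of the same sex, so this reading is uncertain. Deviations of same-litter pairs across the MOR groups correlated at -0.13 to 0.24 (median 0.09, 12 pairs, 5 shared litters). Pairs of different litters correlated at -0.25 to 0.29 (median -0.01, 93 pairs). A litter block was run as an alternative. Other alternatives changed the list length, score, normalisation, overlap, filter, terms, weights and libraries. No 2 striatum lists were identical.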

Additional observations from a re-analysis of the deposited data

Results flagged for a closer look

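In 95 sets of values 21 single libraries lay apart from the rest of their group. A chance rate of about 1 in 20 cannot be set beside this count. The sets include ranks, often tied, at regions that were named from these same libraries. SAL-SAL female 9-4 had the lowest share of neuron markers (10%, the next 45%) and the highest of oligodendrocyte (81.8%, the next 4.55%), oligodendrocyte precursor (25%) and astrocyte markers (12.5%). SAL-SAL male 3-2 had the highest share of cortical projection neuron markers (14.3%).

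The other 16 were MOR-SAL libraries at single regions. Female 7-2 had high ranks at Chd4 (71.3), Cblb (80.5) and the Sox10 promoter (53.8), where its group's medians were 33.3 each. Male 17-4 was high at Alcam (54.9), Marf1 (69.1) and Foxp1 (71.7) and low at Frmpd2 (66.1), Kalrn (54.9) and Rora (87.1). Male 8-0 was high at Serpina3n (86.9) and Slc32a1 (59.7) and low at Gabrb2 (55.7), and female 16-1 was high at the Il12a promoter (74.4). Female 15-0 was high at Srebf1 (67.5) and low at Fgf14 (29.4) and Gabra2 (89.7).

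The LPS difference after morphine differed from that after saline, by the interaction term of limma, at 10 regions. It was more positive at Acap3 (68.3 points), Cblb (65.4), Atp6v1d (61.0), Capn10 (56.2), Ndufb3 (53.1), Nbr1 (50.6) and Brd2 (46.9) and more negative at Fgf14 (-61.8), Ntm (-59.2) and Krt80 (-50.4).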

How the results depend on the processing

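The number of regions called between MOR-LPS and MOR-SAL, 152 as reported, was 2 with lists of equal length (none of them among the 152), 46 with the number of peaks as a term, 71 with the neuron marker share, 0 with the oligodendrocyte share or 3 marker shares as terms, 99 without a sex term, 3162 with array weights, 234 with only MOR libraries, 2318 in females and 5 in males (127, 128 and 3 of the last 3 counts were among the 152). It was 0 without the 6 libraries rich in oligodendrocyte markers, alone and together with equal lists, the number of peaks or females only, settings chosen after seeing the data. Directions of the 152 were kept except at 14 with equal lists and 2 with equal lists and without those libraries, and 20 could not be tested with a filter on regions with a peak in 20% of libraries. The 14 include P4ha3, Ntm, Cpne9 and Pde10a, which had the value of a region without a peak in any cut list. Leaving out 1 MOR library gave 56 to 296.

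The number of interaction calls, 10 as reported, was 0 with equal lists, the number of peaks, the oligodendrocyte share, 3 marker shares or without the 6 libraries (alone or combined), 1 on a quantile-normalised log scale, 6 with that filter, 3 without sex and 87 with array weights, and 2 to 23 when 1 library was left out. The fold of peak numbers stayed between 1.29 and 1.52, and occupancy and marker shares gave 0 calls throughout. The occupancy test could not call 1 region on its own in any of these settings. The replicate block by litter gave 150 and 10 calls and changed no call among the 80 regions. The correlation within litters that it used was -0.0014, so this fit had to stay close to the main one. Litters as fixed terms gave 219 calls, which held only 94 of the 152.

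Signs turned with equal lists at Ptger2 (0.23, and 0.61 also without the 6 libraries), Cck (0.36 and 0.95) and Jund (-5.22 and -9.12). They turned in females at Brd2 (-2.04, and -3.49 without the 6 libraries) and in males at Socs2 (8.77) and Ppp1r1b (-3.71). The cause of the turned signs was not tested. Equal lists left 0.0301 points each at P4ha3, Ntm, Cpne9, Pde10a, Inhba and Pck1. With equal lists and without the 6 libraries Gnai1 and Grm3 had -0.0923 each. A region without a peak in any of the cut lists takes these values, which were also the medians of all regions, so they are no reversal. A region without a peak shares a tied rank that moves with list length, and with no read counts smaller differences were not resolved.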
